A study of Mus musculus with 4 samples.

Results

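The genes described here encode the enzymes that cut the extracellular matrix and the inhibitors that hold them in check. They were chosen by symbol: the matrix metalloproteinases (23 Mmp genes), the ADAMTS proteases (19 Adamts genes), the tissue inhibitors of metalloproteinases (4 Timp genes) and Htra1, a secreted serine protease, 47 of the 28693 genes in the deposited matrices. Of these, 45 had at least 1 UMI (unique molecular identifier, the tag that marks one captured RNA molecule) in a cell that passed the filters, Mmp1b and Adamts19 had none, and 33 had enough UMIs to be tested in at least 1 cell class. The rule used symbols and no measured value, though it was set with earlier results of these data known.

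The values come from single-cell RNA sequencing (10x Genomics 3′ v3) of mouse mammary glands in 4 libraries, 1 per mouse. All 4 mice carried Lats1f/f, Lats2f/f and R26-lsl-EYFP, a reporter that makes yellow fluorescent protein once Cre has cut it, and all received tamoxifen (5 daily doses of 2 mg) with tissue taken 7 days after the last dose. The 2 mice labelled WT, called CTL1 and CTL2 below, had no Cre and were heterozygous for the reporter. The 2 mice labelled LATS1/2 KO, called KO1 and KO2, also carried Krt8-CreERT2, in which the keratin 8 promoter drives a tamoxifen-dependent Cre in luminal epithelium, and KO1 was heterozygous and KO2 homozygous for the reporter. The animals were nulliparous adults, 3 to 10 months old at the start, and only live cells of the dissociated glands were sorted. LATS1 and LATS2 are the kinases of the Hippo pathway that restrain YAP and TAZ, co-activators of the TEAD transcription factors.

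Metalloproteinases are zinc enzymes. Collagenases such as MMP13 cut fibrillar collagen, gelatinases (MMP2 and MMP9) cut denatured collagen and basement membrane collagen, stromelysins (MMP3, MMP10 and MMP11) have broad or restricted substrates, and the membrane-bound MMP14 activates proMMP2 at the cell surface. ADAMTS1, ADAMTS4, ADAMTS5, ADAMTS9 and ADAMTS20 cleave proteoglycans such as versican and aggrecan, while ADAMTS2, ADAMTS3 and ADAMTS14 remove the amino-terminal propeptide of procollagens. TIMP1 to TIMP4 bind the active site of metalloproteinases; TIMP3 is held in the matrix and also inhibits ADAMTS4 and ADAMTS5, and TIMP2 is needed for the activation of proMMP2 by MMP14. In the mammary gland these genes are known for their part in branching and in the remodelling that follows lactation.

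The promoters of 6 members that recur in the results are shown first, because 2 motifs were looked for in the members' promoters that could be matched. These were the motif of the TEAD factors and that of activator protein 1 (AP-1). Each sequence is the RefSeq window (assembly GRCm38.p6) from 250 bases before to 50 bases after the annotated start, 5′ to 3′ on the gene's own strand. Capitals mark a match to GGAATG or its reverse complement CATTCC (the core bound by TEAD factors) or to TGANTCA (the AP-1 motif). The first 3 belong to genes that were higher in LATS1/2-KO luminal ER- cells, Timp1 is the inhibitor with the largest difference in basal cells, and Mmp3 and Mmp13 belong to the chromosome 9 cluster.
Htra1: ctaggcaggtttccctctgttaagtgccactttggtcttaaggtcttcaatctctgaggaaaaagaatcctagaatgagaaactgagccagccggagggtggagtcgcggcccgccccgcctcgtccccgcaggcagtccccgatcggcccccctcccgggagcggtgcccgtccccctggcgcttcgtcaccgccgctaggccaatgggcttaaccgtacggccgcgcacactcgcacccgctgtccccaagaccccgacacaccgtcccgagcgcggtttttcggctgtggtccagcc
Timp3: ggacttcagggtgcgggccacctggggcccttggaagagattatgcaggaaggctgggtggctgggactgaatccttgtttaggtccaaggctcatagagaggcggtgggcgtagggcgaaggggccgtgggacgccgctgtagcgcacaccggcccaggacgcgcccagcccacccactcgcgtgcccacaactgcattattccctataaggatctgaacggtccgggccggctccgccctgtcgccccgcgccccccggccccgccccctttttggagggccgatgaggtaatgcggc
Mmp14: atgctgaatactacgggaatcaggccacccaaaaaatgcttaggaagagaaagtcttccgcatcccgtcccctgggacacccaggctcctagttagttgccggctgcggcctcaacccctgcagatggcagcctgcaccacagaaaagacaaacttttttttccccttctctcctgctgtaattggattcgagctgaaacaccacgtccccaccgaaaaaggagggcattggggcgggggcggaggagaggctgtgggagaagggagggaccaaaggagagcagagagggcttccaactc
Timp1: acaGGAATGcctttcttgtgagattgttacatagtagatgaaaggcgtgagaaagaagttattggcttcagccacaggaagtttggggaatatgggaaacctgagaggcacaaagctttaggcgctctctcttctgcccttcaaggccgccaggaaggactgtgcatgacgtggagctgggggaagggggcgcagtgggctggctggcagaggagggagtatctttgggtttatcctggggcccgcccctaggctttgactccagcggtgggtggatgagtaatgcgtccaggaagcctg
Mmp3: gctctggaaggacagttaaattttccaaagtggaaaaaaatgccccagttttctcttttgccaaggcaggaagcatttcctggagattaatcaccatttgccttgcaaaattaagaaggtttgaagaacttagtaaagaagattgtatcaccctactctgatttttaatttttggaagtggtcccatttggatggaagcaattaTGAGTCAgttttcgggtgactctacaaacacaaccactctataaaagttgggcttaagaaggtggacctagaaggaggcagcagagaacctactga
Mmp13: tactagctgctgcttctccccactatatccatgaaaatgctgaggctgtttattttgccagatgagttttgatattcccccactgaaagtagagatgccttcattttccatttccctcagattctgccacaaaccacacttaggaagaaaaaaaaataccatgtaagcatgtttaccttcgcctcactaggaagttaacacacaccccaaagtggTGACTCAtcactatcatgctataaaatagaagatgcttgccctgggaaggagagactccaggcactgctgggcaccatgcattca
The windows lie at chr7:130935953-130936252 (Htra1, + strand), chr10:86300162-86300461 (Timp3, + strand), chr14:54431348-54431647 (Mmp14, + strand), chrX:20869916-20870215 (Timp1, + strand), chr9:7445572-7445871 (Mmp3, + strand) and chr9:7272264-7272563 (Mmp13, + strand). Neither motif was present in the Htra1, Timp3 or Mmp14 window. The Timp1 window held a TEAD match starting at position -247 and the Mmp3 and Mmp13 windows an AP-1 match at -46 and -35, counted from the start. Of 36 windows for 33 members, 2 held the TEAD core (Timp1 and Adamts13), against 14.7% of all 32851 promoters searched on both strands. The AP-1 motif was in 8 of the 36, against 7.81% of all promoters, and all 8 lay in the Mmp genes of chromosome 9 (Mmp1a, Mmp1b, Mmp3, Mmp7, Mmp10, Mmp12, Mmp13 and Mmp20). A match is a string of letters and was not tested as a binding site. No window was matched for Adamts4, Adamts5, Adamts6, Adamts7, Adamts8, Adamts10, Adamts15, Adamts16, Adamts19, Mmp2, Mmp9, Mmp16, Mmp17 and Mmp19.

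In the GENCODE vM21 annotation (GRCm38), 10 Mmp genes lie together at chr9:7272514-7699585. Adamts1 (chr16:85793827-85803113) and Adamts5 (chr16:85856173-85901828) are neighbours on the - strand, 53059 bases apart. Htra1 lies at chr7:130936111-130985660, Mmp14 at chr14:54431612-54445364 and Timp3 at chr10:86300372-86349506, within the Syn3 locus on the opposite strand. Timp1 and Timp4 overlap Syn1 and Syn2 in the same way. Timp2 (chr11:118301069-118355740) shares its strand with Cep295nl, so reads could be split between them and its counts are uncertain to that extent. Mmp12 and Mmp1b overlap on opposite strands.

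After filtering, 18200 of 20324 barcodes were kept, 3515 to 5272 per library, with 38792520 to 46810771 UMIs and a median of 5962.5 to 10141 UMIs per cell. The libraries shared 4 to 12 barcodes per pair. Cells were clustered without the 47 members and classes were named from fixed marker genes. The CTL and LATS1/2-KO cells of an epithelial class came almost entirely from different clusters: in luminal ER- (oestrogen receptor negative) cells, all but a few CTL cells were in a cluster led by Cck and Atp6v1b1 and the LATS1/2-KO cells in clusters led by Wfdc3 and Kcnj15 or by Ube2c and Ankrd1. In luminal ER+ cells most CTL cells were in a Fxyd2/Ptn cluster and most LATS1/2-KO cells in another, and in basal cells they were mainly in 1500015O10Rik/Cnn1 and Krt5/Gpx2 clusters. In luminal ER- cells the summed level of the luminal ER- markers was 13360 and 16330 CPM in CTL1 and CTL2 against 6929 and 8214 CPM in KO1 and KO2, and that of the basal markers 56.3 and 46.8 CPM against 1698 and 1392 CPM, so the label fits the LATS1/2-KO cells less well. Lats1 itself was lower in LATS1/2-KO luminal ER- cells (25.6 and 25.3 CPM in CTL, 13.4 and 15.5 CPM in KO, log2 fold change -1.15, edgeR adjusted p = 0.000118), whereas Lats2 was higher (15.0 and 16.8 CPM, then 27.3 and 29.3 CPM, log2 fold change 0.50, edgeR adjusted p = 0.00458). The 3′ reads need not cover the deleted part of either gene, so these levels check the labels only in part.

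Free RNA from broken cells adds UMIs to every droplet, and the members that stromal cells make in large amounts can reach other classes that way. Its share was estimated from fibroblast collagens in luminal cells (2.91% to 8.61% of UMIs in a library) and from luminal genes in the other classes (14% to 18.1% in basal cells). A level is called above free RNA below when it was at least 2 times the level that share would give in both LATS1/2-KO libraries. Levels are given in CPM, a gene's UMIs scaled by all UMIs of the class in that library, which for 3′ counts is a scale of molecules with no length correction. Tests are edgeR's quasi-likelihood test on summed UMIs, with Benjamini-Hochberg adjustment over all genes. Those of LATS1/2-KO against CTL use sums per library, 2 against 2 mice, and those of EYFP compare sums within the 2 LATS1/2-KO mice. "Called" means an adjusted p below 0.05. A ± value is a standard error (SE) worked back from the log2 fold change and the test's F statistic. Where a group holds few UMIs it can be smaller than the counting error, so it understates the uncertainty there.

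Luminal ER- cells, the class that Krt8-CreERT2 reaches and the largest class in all 4 libraries (2107 to 2941 cells), were compared first. Summed over all members, the level was 297.7 and 294.1 CPM in CTL1 and CTL2 and 1624 and 1824 CPM in KO1 and KO2. Of 30 members tested, 19 were called higher and 4 lower in LATS1/2-KO cells, where 33.5% of the 13599 genes tested were higher and 31.3% lower, 64.8% in all. The median log2 fold change of the members tested was 2.08, against 0.01 over all genes.

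**Figure D1:**
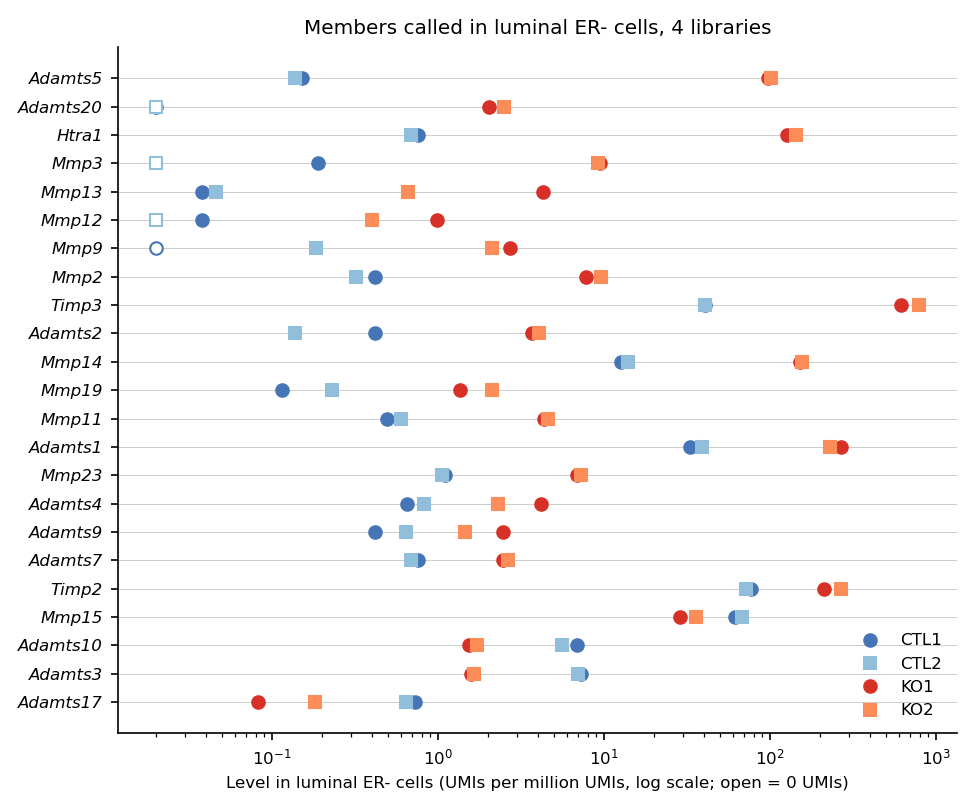
Level of the 23 called members in luminal ER- cells, in CPM on a log axis, in each of the 4 libraries, ordered by log2 fold change. The KO1 and KO2 points lie to the right of CTL1 and CTL2 for 19 genes, from Adamts5 at the top to Timp2, and to the left for Mmp15, Adamts10, Adamts3 and Adamts17. Open symbols mark 0 UMIs.

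Htra1 went from near absence to one of the higher members. It was at 0.765 CPM in CTL1 and 0.692 CPM in CTL2 and at 127 CPM in KO1 and 144 CPM in KO2, and UMIs were found in 0.68% and 0.57% of CTL cells against 35.3% and 31.6% of LATS1/2-KO cells. The CTL levels were near the free RNA estimate (0.67 and 0.233 CPM), whereas the KO levels were far above theirs (11.7 and 9.16 CPM). The log2 fold change was 7.19 ± 0.15 (edgeR adjusted p = 1.56e-06).

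Adamts5 and Adamts20, both proteoglycan-cutting enzymes, had the largest log2 fold changes of the members tested. Adamts5, an aggrecanase, was at 0.153 and 0.139 CPM in the CTL mice (4 and 3 UMIs) and at 97.5 and 102 CPM in the KO mice (2352 and 2779 UMIs), a log2 fold change of 9.03 ± 0.16 (edgeR adjusted p = 1.56e-06). Adamts20 had no UMI in either CTL library and 49 and 68 UMIs in KO1 and KO2, at least 36.3-fold higher when 3 UMIs over both CTL libraries are taken as the limit. Both sets of KO values stood apart from CTL. Adamts1, the neighbour of Adamts5, rose from 33.0 and 38.7 CPM to 270 and 232 CPM (log2 fold change 2.47 ± 0.13, edgeR adjusted p = 1.08e-05), a smaller relative rise from a higher start. Adamts4, Adamts7 and Adamts9 were also called higher, at 1.47 to 4.19 CPM in the KO libraries.

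Among the inhibitors, Timp3 reached the highest level of all members in this class. It was at 40.8 and 40.6 CPM in CTL1 and CTL2 and at 618 and 788 CPM in KO1 and KO2 (log2 fold change 3.77 ± 0.14, edgeR adjusted p = 4.31e-06), with UMIs in 18.4% and 20.2% of CTL and 64.4% and 63.3% of KO cells. Timp2 went from 76.5 and 72.2 CPM to 212 and 270 CPM (log2 fold change 1.36 ± 0.12, edgeR adjusted p = 0.00011). Timp1 did not pass the test: its levels of 44.7 and 33.3 CPM in CTL and 53.0 and 30.3 CPM in KO overlapped (log2 fold change -0.24 ± 0.26, edgeR adjusted p = 0.436). Timp4 was at or below 0.58 CPM in all 4 libraries and did not pass (edgeR adjusted p = 0.0656). Thus 2 of the 4 inhibitors, Timp2 and Timp3, passed the test.

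Of the membrane-bound metalloproteinases, Mmp14 was higher and Mmp15 lower. Mmp14 was at 12.6 and 13.9 CPM in CTL and 151 and 156 CPM in KO (log2 fold change 3.20 ± 0.10, edgeR adjusted p = 2.78e-06). Mmp15 was at 61.7 and 68.2 CPM in CTL and 28.6 and 36.1 CPM in KO (log2 fold change -1.34 ± 0.13, edgeR adjusted p = 0.00013). The higher of the pair in CTL cells was therefore Mmp15 and in LATS1/2-KO cells Mmp14. Mmp23, another membrane-tethered enzyme, rose from 1.11 and 1.06 CPM to 6.92 and 7.26 CPM.

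The secreted metalloproteinases were low and partly at the level of free RNA. Mmp13 was at 0.0382 and 0.0462 CPM in CTL (1 UMI each) and 4.31 and 0.66 CPM in KO, above free RNA in both. Mmp11 was at 0.497 and 0.60 CPM in CTL and 4.35 and 4.62 CPM in KO. By contrast, Mmp3 at 9.49 and 9.17 CPM in KO was near or below its free RNA estimate of 9.45 and 13.3 CPM. With Mmp2, Mmp9, Mmp12, Mmp19, Adamts2 and Adamts9, 7 of the 19 higher calls were less than 2 times the free RNA level in at least 1 KO library. When the estimated free RNA was subtracted, Mmp2, Mmp3, Mmp9, Mmp12, Mmp19 and Adamts9 were no longer called. Markers of other cell types also differed: the 7 fibroblast markers, all detected in every library, summed to 27.3 and 12.4 CPM in CTL and 217 and 204 CPM in KO luminal ER- cells, and the 8 macrophage markers (7 detected in CTL, 8 in KO) to 12.1 and 14.9 CPM and then 39.8 and 49.9 CPM. The 8 myCAF markers (matrix-making fibroblasts) went the same way, from 20.03 and 19.29 CPM to 268 and 220 CPM. The 10 iCAF markers (inflammatory fibroblasts), all detected in every library, went the other way, from 486 and 509 CPM to 100.4 and 109 CPM. Their part in the result was not tested.

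The members that fell were Adamts3 and Adamts10, with Adamts17 and Mmp15. Adamts3, a procollagen amino-propeptidase, went from 7.26 and 7.02 CPM to 1.57 and 1.65 CPM (log2 fold change -2.48 ± 0.19, edgeR adjusted p = 5.43e-05). Adamts10, which binds fibrillin, went from 6.92 and 5.59 CPM to 1.53 and 1.72 CPM (log2 fold change -2.28 ± 0.22, edgeR adjusted p = 0.000139). Adamts17 was at 0.726 and 0.646 CPM in CTL and 0.0829 and 0.183 CPM in KO, the largest fall in relative terms (log2 fold change -2.63 ± 0.50, edgeR adjusted p = 0.00299).

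The LATS1/2-KO luminal ER- cells were not alike in these genes. In the Wfdc3/Kcnj15 cluster Htra1 was at 15.0 and 10.3 CPM in KO1 and KO2, Adamts5 at 12.9 and 9.50 CPM and Timp3 at 176 and 185 CPM. In the Ube2c/Ankrd1 cluster Htra1 was at 182 and 241 CPM, Adamts5 at 139 and 169 CPM and Timp3 at 834 and 1227 CPM. Mmp14 differed less, at 117 and 112 CPM in the former and 167 and 188 CPM in the latter. Mmp15 went the other way, at 42.6 and 54.2 CPM against 21.7 and 22.9 CPM. EYFP UMIs were found in 6.82% and 9.40% of cells of the former cluster and 39.4% and 56.2% of the latter, whose median UMI count was 14194 and 17675 against 5982 and 7042. These are clusters of the same data, so the values describe them and were not tested.

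Beyond the members, the other protease genes of the pathway were read from lists that hold no member, in a class where 33.5% of all genes tested were higher and 31.3% lower. Unlike the members, these genes were not compared with the free RNA estimate, so their calls carry that limit. Of 6 tested genes of the plasminogen system, which makes plasmin, 5 were higher in luminal ER- cells, among them Plau, the urokinase-type activator (log2 fold change 4.89 ± 0.29). All 5 tested genes of procollagen processing were higher, with Bmp1, the procollagen C-proteinase, at 4.20 ± 0.20. Of 7 ADAM genes 6 were higher and 1 lower, and Adam12 had the largest value (10.62 ± 0.58). Cathepsins and their cystatins gave 5 higher and 2 lower of 9, the ADAMTS-like proteins and substrates 4 higher and 1 lower of 6 (Vcan, the versican core protein, at 5.52 ± 0.24), and the activators and membrane inhibitors 2 higher and 4 lower of 10. The genes that dissociation can induce were mostly lower, 7 of 10 with 3 higher. Their part in the member results was not tested.

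In luminal ER+ cells, the hormone-receptor-positive luminal class, 22 members were tested, 13 were called higher and none lower, where 14.5% of 12503 genes were higher and 13.7% lower, 28.2% in all. The median log2 fold change of the members was 1.89, against -0.01 over all genes. This class held 1400 and 1043 cells in the CTL libraries but 484 and 142 in KO1 and KO2. The members above free RNA were Mmp14, Timp2, Timp1, Mmp15 and Mmp13. Of these, Mmp13 rested on few UMIs in KO2, 1 in cells with an EYFP UMI and 1 in cells without. The Mmp13 call was lost with sums thinned to the smallest library, without the highest doublet scores and without KO1. Mmp14 was at 81.8 and 110 CPM in CTL and 261 and 302 CPM in KO (log2 fold change 1.54 ± 0.16, edgeR adjusted p = 0.00209). Timp2 was at 57.1 and 62.6 CPM and then 135 and 140 CPM (1.19 ± 0.10), and Timp1 at 15.8 and 17.3 CPM and then 55.1 and 61.9 CPM (1.80 ± 0.12). Mmp15, lower in luminal ER- cells, was higher here, at 50.6 and 39.2 CPM and then 65.0 and 71.7 CPM (0.59 ± 0.16, edgeR adjusted p = 0.0371). That call was lost with DESeq2, with a fold limit of 0.6 on the log2 scale, with sums thinned to the smallest library, with each cell classed by its own marker UMIs, and without CTL2, KO1 or KO2, while the direction stayed.

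Timp3 and Adamts1 moved in luminal ER+ cells at levels close to free RNA. Timp3 was at 10.6 and 11.1 CPM in CTL and 47.5 and 38.4 CPM in KO, where free RNA alone would give 42.9 and 45.6 CPM. With free RNA subtracted its log2 fold change was -1.46 and was not called (edgeR adjusted p = 0.121). Adamts1 was at 7.31 and 6.57 CPM and then 40.4 and 33.2 CPM, with 21.8 and 19.2 CPM from free RNA. Its call, unlike that of Timp3, was kept with free RNA subtracted. Adamts2, Adamts5, Mmp2, Mmp3, Mmp9 and Mmp11 were also called higher and under 2 times the free RNA level in at least 1 KO library, making 8 of the 13. Htra1 showed no call: it was at 17.4 CPM in CTL1 but 3.29 CPM in CTL2, and 12.2 and 10.4 CPM in KO, where free RNA alone would give 12.8 and 10.8 CPM (log2 fold change 0.16 ± 0.79, edgeR adjusted p = 0.903). Timp4 was at or below 2.07 CPM in all 4 libraries. The number of calls was 6 without KO replicate 1 and 6 with free RNA subtracted.

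The difference between the luminal classes was tested as an interaction with the mouse as block. Of 31 members tested, 3 had a higher and 4 a lower effect in luminal ER+ than in luminal ER- cells, where 12.3% and 15.4% of all genes did, 27.7% together. Htra1 had the largest difference (-7.01 ± 0.41 on the log2 scale, edgeR adjusted p = 4.9e-06), followed by Adamts9 (-2.66 ± 0.51), Timp3 (-1.74 ± 0.18) and Mmp14 (-1.67 ± 0.13). The effect was higher in luminal ER+ cells for Adamts3 (2.63 ± 0.59), Timp1 (1.97 ± 0.28) and Mmp15 (1.95 ± 0.19). Without KO replicate 1 the Adamts3 and Adamts9 calls were lost. Timp2, called higher in both classes, differed by -0.16 ± 0.13 (edgeR adjusted p = 0.409). In the LATS1/2-KO luminal ER+ cells the levels of both Timp3 and Htra1 were near those that free RNA alone would give, as stated above.

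In basal cells, the contractile outer layer in which the keratin 8 promoter is not known to be active, 17 members were tested (160 to 467 cells per library). EYFP UMIs were found in 3.6% and 4.93% of the KO cells of the main basal cluster and in 0.51% and 1.25% of the CTL cells. Of these 4 were called higher and 5 lower, where 17.0% of 9336 genes were higher and 16.8% lower, 33.8% in all. The median of the members was -0.33 and of all genes -0.0014. Timp1, the inhibitor that did not pass the test in luminal ER- cells, had the largest rise above free RNA. It was at 5.70 and 10.3 CPM in CTL1 and CTL2 (4 and 7 UMIs) and at 259 and 165 CPM in KO1 and KO2 (log2 fold change 4.62 ± 0.34, edgeR adjusted p = 4.96e-09). Mmp14 was at 52.8 and 61.5 CPM and then 220 and 277 CPM (2.02 ± 0.19, edgeR adjusted p = 1.14e-07). Htra1 rose from 34.2 and 24.9 CPM to 61.3 and 52.0 CPM (0.82 ± 0.25, edgeR adjusted p = 0.0159). The Htra1 call was lost with DESeq2, with thinned sums, without the highest doublet scores and without CTL2 or KO1, and with free RNA subtracted the log2 fold change was 0.0622. Mmp3 had no UMI in CTL and 17.6 and 19.5 CPM in KO, below the free RNA estimate of 21.6 and 35.2 CPM.

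Timp3 and Adamts1 fell in basal cells, opposite to their rise in luminal ER- cells. Timp3 was at 314 and 337 CPM in CTL and 152 and 133 CPM in KO (log2 fold change -1.29 ± 0.15, edgeR adjusted p = 2.79e-06), the latter with 90.1 and 102 CPM expected from free RNA. Adamts1 was at 264 and 229 CPM and then 121 and 121 CPM (-1.13 ± 0.16, edgeR adjusted p = 1.59e-05). Adamts18 lost most of its level, from 59.9 and 45.4 CPM to 2.79 and 1.03 CPM (-4.94 ± 0.42, edgeR adjusted p = 3.17e-08). Adamts2 and Adamts10 also fell, by 2.07 and 1.38 on the log2 scale, and both calls were lost with DESeq2, with thinned sums and without CTL2 or KO2. Timp2 did not pass, at 143 and 188 CPM in CTL and 139 and 161 CPM in KO (-0.24 ± 0.16, edgeR adjusted p = 0.285). Mmp2 did not pass either, at 91.3 and 79.1 CPM and then 88.7 and 105 CPM. Timp4 was not tested. Epithelial and fibroblast markers also moved: the 6 epithelial markers summed to 2328 and 1766 CPM in CTL and 4019 and 3381 CPM in KO basal cells, and the 8 myCAF markers (3 and 4 detected in CTL, 8 in KO) to 284 and 353 CPM and then 1155 and 1136 CPM. The 10 iCAF markers (6 detected in CTL, 9 in KO) were lower in KO, at 421 and 292 CPM and then 248.9 and 218 CPM. Their part in the member results was not tested. When each cell was classed by its own marker UMIs instead, Timp3 and Adamts1 had log2 fold changes of 1.14 and 0.07 in basal cells and 16 members were called.

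The interaction of basal against luminal ER- cells was called for 13 of 30 members, 1 higher and 12 lower in basal cells, where 16.1% of all genes were higher and 9.60% lower, 25.7% together. Timp1 was the member with the higher effect in basal cells, by 5.05 ± 0.27 (edgeR adjusted p = 6.45e-21). The lower effects were largest for Adamts5 (-9.66 ± 0.72), Adamts20 (-9.14 ± 1.64), Htra1 (-6.21 ± 0.41), Adamts2 (-5.28 ± 0.67) and Timp3 (-4.90 ± 0.15, edgeR adjusted p = 9.3e-31). Adamts18, Mmp2, Adamts1, Mmp23, Adamts4, Timp2 and Mmp14 followed, from -4.47 to -1.01. Mmp14 was therefore higher in both classes, but less so in basal cells. Adamts20 had no UMI in CTL luminal ER- cells, so the size of its difference depends on how the fit treats 0 UMIs.

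**Figure D2:**
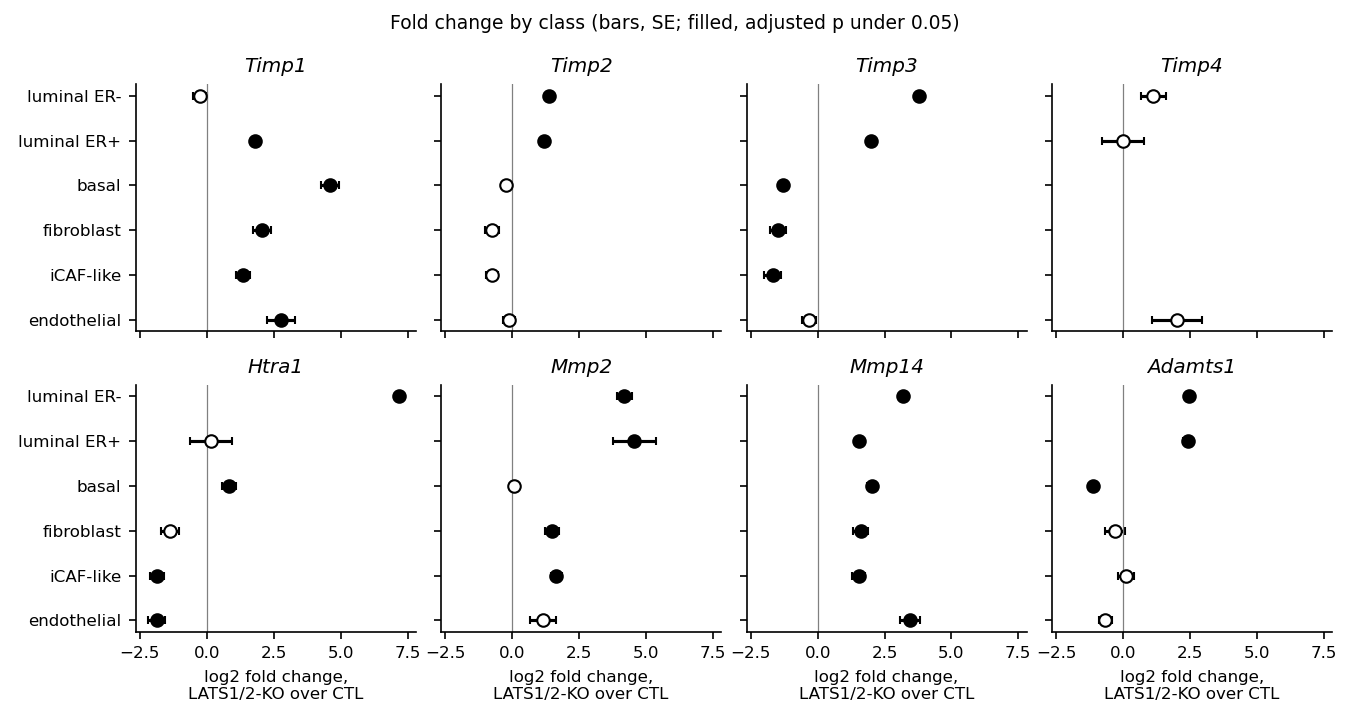
Log2 fold change of LATS1/2-KO over CTL with its SE for 8 members in 6 classes, filled where the adjusted p was below 0.05. Mmp14 was called higher in all 6 classes, Timp1 in 5 of them, and Timp3 and Htra1 were higher in luminal ER- cells and lower in iCAF-like cells. Timp4 was tested in 3 classes and called in none.

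Fibroblasts were compared as one lineage, which joins iCAF-like cells (named from markers of inflammatory fibroblasts) and myCAF-like cells (markers of contractile, matrix-making fibroblasts), and as iCAF-like cells alone. PVL-like cells (perivascular markers) are a separate stromal subtype. In the lineage, 6 of 23 members were higher and 1 lower, where 1.86% of 8637 genes were higher and 2.10% lower, 3.96% in all. The CTL lineage was almost all iCAF-like (59 and 25 cells, with 1 and 0 myCAF-like), whereas KO1 and KO2 held 134 and 748 iCAF-like and 197 and 229 myCAF-like cells, so the mixture differed. The 6 higher members were Mmp11 (log2 fold change 4.09 ± 0.41), Adamts15 (3.71 ± 0.59), Timp1 (2.06 ± 0.33), Mmp14 (1.61 ± 0.28), Mmp2 (1.48 ± 0.26) and Mmp3 (1.44 ± 0.25). Timp3 was lower (-1.48 ± 0.32, edgeR adjusted p = 0.0383). Htra1, at 709 and 828 CPM in CTL and 364 and 194 CPM in KO, and Timp2, at 1615 and 1218 CPM and then 735 and 828 CPM, did not pass (edgeR adjusted p = 0.0566 and 0.142). These calls rested on few CTL cells: 1 call was left without CTL replicate 1 and 2 without CTL replicate 2, while 13 were made without KO replicate 2.

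Within iCAF-like cells alone, 7 of 17 members were higher and 3 lower, where 5.20% of 5926 genes were higher and 6.83% lower, 12.0% in all. Mmp3, a stromelysin, was at 822 and 740 CPM in CTL and 3430 and 1832 CPM in KO (log2 fold change 1.81 ± 0.28, edgeR adjusted p = 0.00368). Mmp2 was at 541 CPM in each CTL library and 1543 and 1682 CPM in KO (1.65 ± 0.20, edgeR adjusted p = 0.00104). Mmp11 was at 20.7 and 15.9 CPM and then 194 and 173 CPM (3.33 ± 0.37, edgeR adjusted p = 0.000701). All 3 were among the secreted enzymes that stromal cells are known to make. The Mmp3 call was lost without CTL replicate 1 and also without CTL replicate 2, whereas those of Mmp2 and Mmp11 were kept in both cases. Adamts15, Mmp14, Adamts5 and Timp1 were the other higher members, by 3.77, 1.53, 1.5 and 1.35 on the log2 scale. Adamts1 (347 and 541 CPM in CTL, 359 and 530 CPM in KO), Adamts2, Adamts4, Mmp19 and Mmp23 were also above 50 CPM in both KO libraries and did not pass.

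In the same cells, Htra1 and Timp3 were lower. Htra1 was at 747 and 828 CPM in CTL and 256 and 158 CPM in KO (log2 fold change -1.88 ± 0.26, edgeR adjusted p = 0.00237). Timp3 was at 1036 and 700 CPM and then 355 and 180 CPM (-1.68 ± 0.33, edgeR adjusted p = 0.0102). The sign of both was thus opposite to that in luminal ER- cells, where the interaction with iCAF-like cells was not tested. Mmp16 was also lower, on 6 and 3 UMIs in CTL. Timp2 was at 1627 and 1218 CPM and then 737 and 876 CPM and did not pass (edgeR adjusted p = 0.0533). There were 3 calls without CTL replicate 1 and 6 without CTL replicate 2. With each cell classed by its own marker UMIs, Htra1 and Timp3 were at 0.02 each.

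Endothelial cells (44 and 35 in CTL, 263 in each KO library) had 4 of 14 members higher and 1 lower, where 3.19% of 7581 genes were higher and 3.73% lower, 6.93% in all. Adamts9 was at 131 and 187 CPM in CTL and 665 and 538 CPM in KO (log2 fold change 1.97 ± 0.25, edgeR adjusted p = 0.000318). Mmp14 was at 16.4 and 14 CPM, on 4 and 3 UMIs, and then 164 and 167 CPM (3.47 ± 0.37, edgeR adjusted p = 0.000109). Timp1 rose from 12.3 and 4.66 CPM to 58.7 CPM in each KO library (2.77 ± 0.53), on 3 and 1 UMIs in CTL, and this call was lost with DESeq2, with no low-count filter and without KO1 or KO2. Mmp3 had no CTL UMI, and its 25.1 and 42.1 CPM in KO were less than 2 times free RNA. Htra1 fell from 107 and 149 CPM to 37.6 and 29.4 CPM (-1.88 ± 0.30, edgeR adjusted p = 0.00175), with 23.1 and 19.2 CPM of the latter expected from free RNA. The 4 lymphatic endothelial markers summed to 771 and 1138 CPM in CTL1 and CTL2 (2 and 3 detected) but 20.4 and 85.7 CPM in KO1 and KO2 (3 and 4 detected), so the make-up of the class differed, whereas the 8 general endothelial markers were at 4877 to 5293 CPM in all 4 libraries. Their part in the endothelial results was not tested.

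Timp2, Timp3 and Timp4 did not pass in endothelial cells, and neither did Adamts1 (976 and 1483 CPM in CTL, 803 and 709 CPM in KO) or Adamts4 (156 and 65.3 CPM, then 228 and 212 CPM). Timp3 was high in all 4 libraries, at 988 and 1847 CPM in CTL and 956 and 1251 CPM in KO (log2 fold change -0.31 ± 0.27, edgeR adjusted p = 0.557). Timp2 was at 303 and 336 CPM and then 272 and 298 CPM (-0.12 ± 0.22). Timp4 was at 8.20 and 32.7 CPM and then 20.4 and 136 CPM, so its groups overlapped (edgeR adjusted p = 0.237). The number of calls ranged from 3 to 8 as libraries were left out, 3 without KO replicate 2 and 8 without CTL replicate 1.

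Lymphocytes gave no call with edgeR among the 2 members tested (Timp2 and Timp3), where 1.66% of 3914 genes were called. At an unadjusted p below 0.05, 1 member passed with edgeR and 7 with DESeq2, which filters low counts differently. Timp3 was at 0 and 14.8 CPM in CTL and 41.8 and 74.5 CPM in KO, below the free RNA level of 89.4 and 97.8 CPM in KO. Timp2 was at 67.9 and 36.9 CPM and then 55.7 and 80.4 CPM. Macrophages (10 and 8 cells in CTL) and PVL-like cells (18 and 7) had too few CTL cells for a test.

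Over all tested classes, 27 of 33 members were called in at least 1, where 71.8% of the 14468 genes tested in any class were: 17 higher only, 5 lower only (Adamts3, Adamts10, Adamts17, Adamts18 and Mmp16) and 5 in both directions (Htra1, Timp3, Mmp15, Adamts1 and Adamts2). Over all genes, 33.0% were called higher only, 33.0% lower only and 5.75% in both directions. Mmp14 and Mmp3 were called higher in 6 classes each and Timp1 in 5, where the fibroblast lineage and its iCAF-like cells count as 2 classes although they share cells. For Mmp3, 4 of the 6 were classes in which its level was below 2 times free RNA. For Mmp14 the level was above free RNA in every one of its 6 classes.

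Where the members were made in the LATS1/2-KO glands differed from gene to gene, and this was described as levels in KO1 and KO2 without a test. Mmp9, the gelatinase of myeloid cells, was at 1270 and 1093 CPM in macrophages, which gave 90.1% and 94.3% of its UMIs. The 5 neutrophil markers, all detected in that class, summed to 566 CPM in KO1 but 5476 CPM in KO2, and their part in the Mmp9 level was not tested. Mmp12, the macrophage elastase, was at 174 and 47.4 CPM there, with 77.6% and 73.7% of its UMIs. Mmp3 was highest in iCAF-like cells (3430 and 1832 CPM) and at 1399 and 1466 CPM in myCAF-like cells. Macrophages and fibroblasts thus held the highest levels of these secreted enzymes. Macrophages also had Mmp14 at 227 and 184 CPM, Mmp19 at 88.7 and 136 CPM and Timp2 at 204 and 295 CPM. Timp3 was at 43.1 and 83.0 CPM there and Htra1 at 20.8 and 16.9 CPM, both below the levels that free RNA alone would give.

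**Figure D3:**
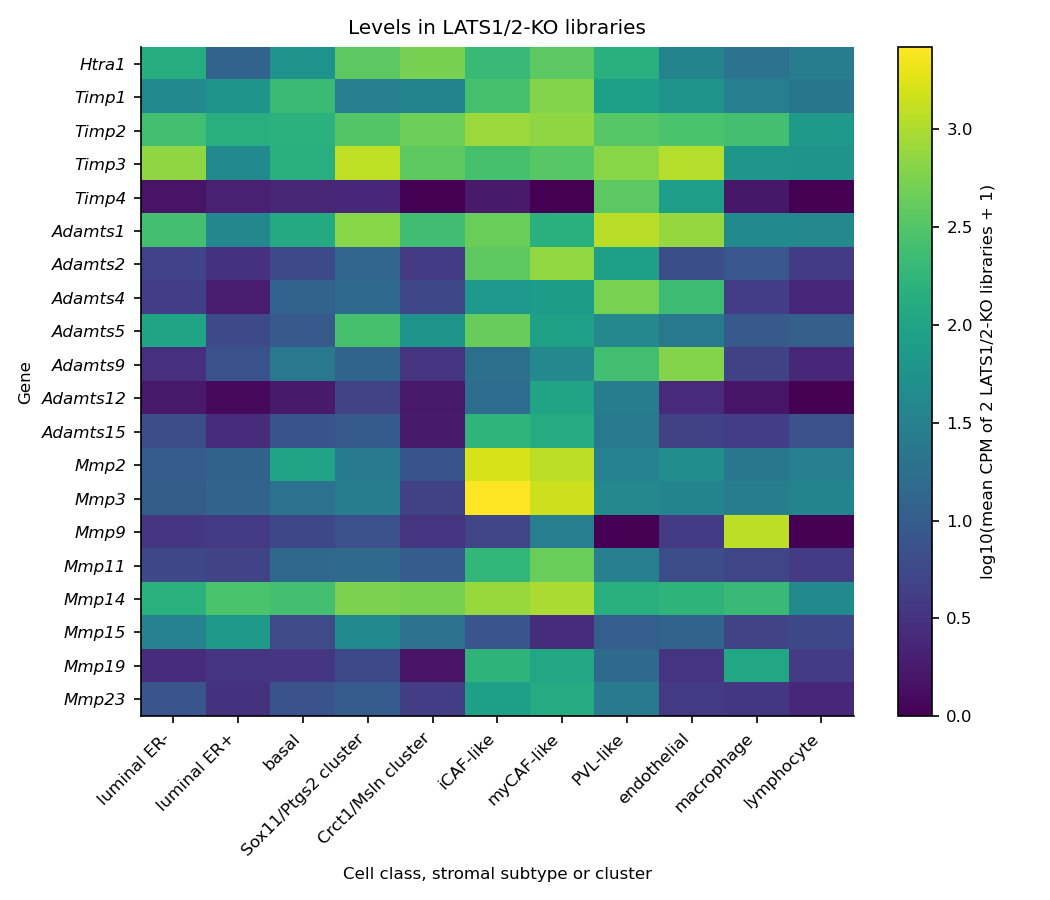
Mean level of the members above 50 CPM in both LATS1/2-KO libraries in at least 1 class, as log10 of CPM plus 1, for 11 classes, subtypes or clusters. Mmp9 is bright in macrophages, Mmp2 and Mmp3 in iCAF-like and myCAF-like cells, Adamts4 and Timp4 in PVL-like cells, and Timp3 in endothelial cells, the Sox11/Ptgs2 cluster and luminal ER- cells.

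myCAF-like cells, found almost only in the KO libraries (197 and 229 cells), had 16 members above 50 CPM in both. Mmp3 was the highest member there, at the level given above, followed by Mmp2 at 1154 and 1246 CPM, Mmp14 at 931 and 981 CPM and Adamts2, which trims procollagens, at 747 and 714 CPM. Mmp11 was at 416 and 459 CPM. Timp1 was at 647 and 564 CPM, its highest level in any class. Timp2 was at 734 and 694 CPM, Timp3 at 349 and 328 CPM and Htra1 at 422 and 297 CPM, and Timp4 had no UMI. Adamts1, Adamts4, Adamts5, Adamts12, Adamts15, Mmp19 and Mmp23 lay between 61.0 and 149 CPM. Mmp13 (138 and 40.4 CPM) and Mmp10 (63.4 and 17.7 CPM) varied more between the mice. PVL-like cells had high Adamts1 (1014 and 1294 CPM), Adamts4 (654 and 419 CPM) and Timp4 (228 and 495 CPM). They also had Timp3 at 544 and 743 CPM, Timp2 at 257 and 427 CPM, Htra1 at 154 and 137 CPM and Timp1 at 88.2 and 81.1 CPM. No other class had Timp4 above 50 CPM in both KO libraries.

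A pair of epithelial clusters that could not be named, found almost only in KO libraries, also had high levels. The one led by Sox11 and Ptgs2 (324 and 446 cells) had Timp3 at 958 and 1480 CPM, Adamts1 at 616 and 676 CPM, Mmp14 at 502 and 608 CPM, Htra1 at 424 and 304 CPM and Adamts5 at 276 and 259 CPM. The one led by Crct1 and Msln (157 and 115 cells) had Htra1 at 525 and 535 CPM, Mmp14 at 518 and 511 CPM and Timp2 at 417 and 498 CPM, with Timp3 at 309 and 431 CPM and Timp1 at 45.4 and 22.4 CPM. In the latter, EYFP UMIs were found in 81.5% and 93.9% of cells, the highest share of any epithelial cluster.

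The share of each member's UMIs by class sums up cell number and level together. Luminal ER- cells gave 51.4% and 47.1% of the Timp3 UMIs in CTL1 and CTL2 and 77.2% and 74.9% in KO1 and KO2. For Htra1 their share was 3.34% and 6% in CTL and 53.4% and 57.5% in KO, and for Adamts5 5.33% and 7.32% and then 73.2% and 50.6%. Timp1 went the other way, from 77.7% and 66.7% to 37.9% and 22.8%, and fibroblasts and basal cells took the difference. For Mmp14, luminal ER+ cells gave 76.2% and 84.5% in CTL and 12.2% and 3.63% in KO. KO1 and KO2 differed in iCAF-like cell number, so their shares of Mmp2, Mmp3 and Timp1 differed too.

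**Figure D4:**
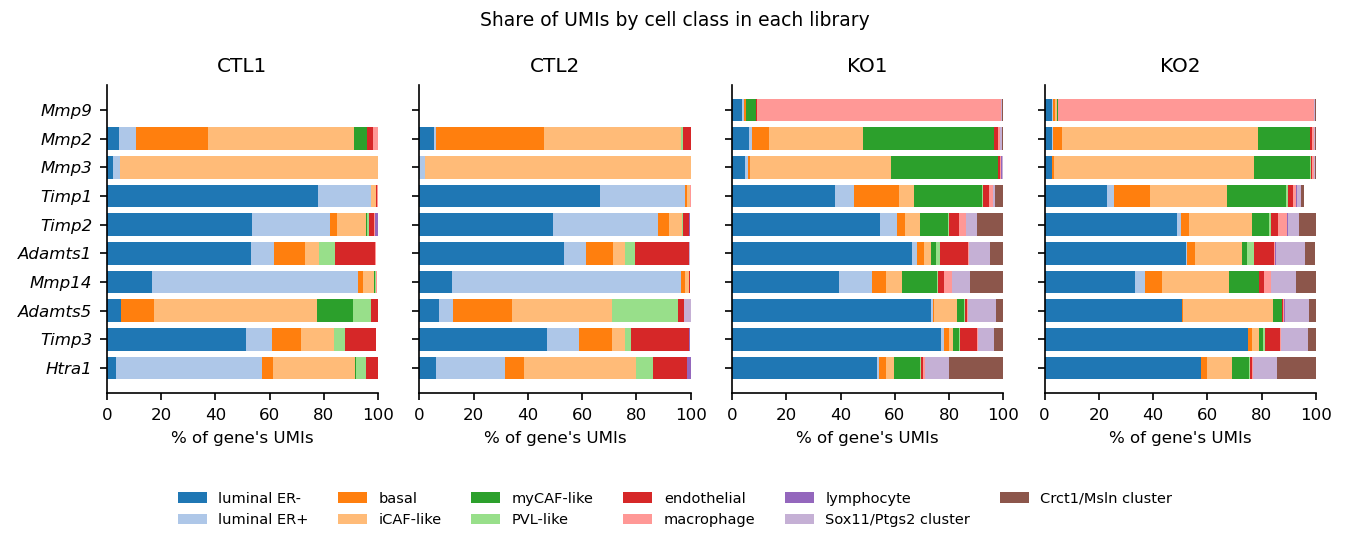
Percent of each of 10 members' UMIs in a library that came from each class, subtype or cluster, 1 panel per library. Genes with fewer than 20 UMIs in a library are blank (Mmp9 in both CTL libraries). In KO1 and KO2 luminal ER- cells hold most of the Htra1, Timp3 and Adamts5 UMIs, macrophages most of Mmp9 and fibroblast subtypes most of Mmp2 and Mmp3.

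Within the LATS1/2-KO mice, luminal cells with at least 1 EYFP UMI (EYFP+) were compared with those with none (EYFP-), with the mouse as block. In CTL1 and CTL2, which have no Cre, 0.272% and 0.382% of the cells of the luminal ER- cluster had an EYFP UMI. In the LATS1/2-KO luminal ER- cells the EYFP+ sums held 492 and 604 cells and the EYFP- sums 1677 and 1587. The median UMI count was 14302 and 16966 in EYFP+ against 7812 and 7808 in EYFP- cells, and a deeper cell is more likely to show an EYFP UMI, so depth and recombination cannot be told apart in this split. Of 26 members tested, 10 were higher and 5 lower in EYFP+ cells, where 20.2% of 12662 genes were higher and 21.6% lower, 41.8% in all. The members' median was -0.04 and that of all genes -0.01.

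Htra1 was at 92.1 CPM in EYFP- and 199 CPM in EYFP+ cells of KO1, and at 68.7 and 252 CPM in KO2 (log2 fold change 1.48 ± 0.08, edgeR adjusted p = 2.56e-31). Adamts5 was at 72.4 and 148 CPM in KO1 and 49.8 and 177 CPM in KO2 (1.41 ± 0.08, edgeR adjusted p = 5.37e-28). Timp3 was at 500 and 859 CPM in KO1 and 504 and 1200 CPM in KO2 (1.00 ± 0.06, edgeR adjusted p = 6.33e-29). The 3 genes were higher in the EYFP+ cells of both mice and their EYFP- levels were also far above the CTL levels given above. Adamts20, Mmp23, Adamts4, Adamts1, Timp2 and Mmp14 were higher as well, by 1.76 down to 0.51.

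**Figure D5:**
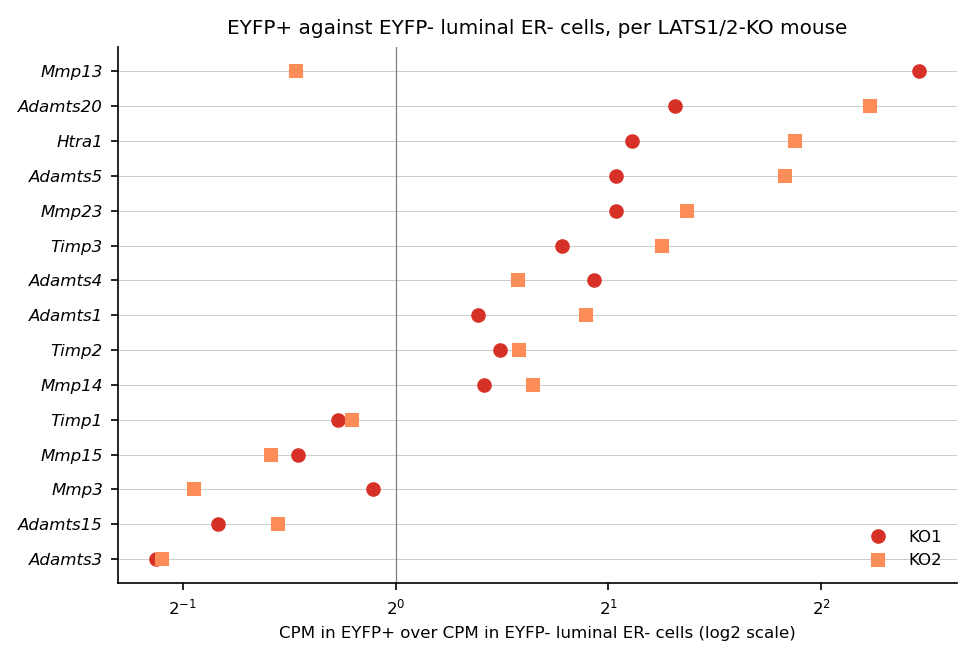
Ratio of CPM in EYFP+ to CPM in EYFP- luminal ER- cells for the 15 called members, on a log2 axis, with KO1 and KO2 as separate points. Htra1, Adamts5 and Timp3 lie right of 1 in both mice, Adamts3 and Timp1 left of 1 in both, and Mmp13 at 5.50 in KO1 but 0.722 in KO2.

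The lower members were Adamts3, Adamts15, Mmp3, Mmp15 and Timp1. Timp1 was at 56.2 CPM in EYFP- and 46.5 CPM in EYFP+ cells of KO1, and 32.0 and 27.8 CPM in KO2 (log2 fold change -0.26 ± 0.09, edgeR adjusted p = 0.0217). Mmp15 was at 31.4 and 22.8 CPM, and 41.8 and 27.8 CPM (-0.55 ± 0.10). Mmp13 was called higher although its ratio was 5.50 in KO1 and 0.722 in KO2, so its call rests on 1 mouse. Without the Ube2c/Ankrd1 cluster, which holds most EYFP+ cells, 2 members were called, Htra1 and Timp3. With every cell thinned to 2000 UMIs 6 were called, with no mouse block 6 and with DESeq2 7.

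In luminal ER+ cells the EYFP+ sums held only 39 and 27 cells and 8 members were tested, with 3 higher and none lower, where 2.29% of 7408 genes were higher and 1.82% lower, 4.12% in all. Timp2 was at 128 CPM in EYFP- and 194 CPM in EYFP+ cells of KO1, and 124 and 196 CPM in KO2 (log2 fold change 0.65 ± 0.16, edgeR adjusted p = 0.00151). Adamts1 was at 34.7 and 85.7 CPM, and 31.9 and 38.0 CPM (0.99 ± 0.28, edgeR adjusted p = 0.0135). Htra1 was at 10.4 and 26.5 CPM, and 5.87 and 26.3 CPM (1.62 ± 0.49, edgeR adjusted p = 0.0258), on 13 and 9 UMIs in the EYFP+ sums. Timp3 did not pass, at 46.8 and 53.1 CPM, and 41.1 and 29.2 CPM, and nor did Timp1, at 54.1 and 63.3 CPM, and 59.5 and 70.1 CPM. Without the mouse block none of the 3 was called by edgeR, with 4 members at an unadjusted p below 0.05, and with DESeq2 none was called, with 1 below it.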

How the data were processed

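Single cells of 4 mouse mammary glands (2 labelled WT, 2 LATS1/2 KO) were profiled with 10x 3′ v3 libraries. The deposited matrices hold UMI counts per gene and barcode, not normalized, which the authors made with Cell Ranger on mm10 plus an EYFP entry. The submitters' processing notes name Cell Ranger 3.1.0 and the matrix header 6.1.2, and the difference could not be settled. The counts are strand-specific by the kit's design.

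Cells with over 500 genes and under 20% mitochondrial UMIs were kept, as in the study's methods. They were clustered with Seurat 5.3.0 and sctransform 0.4.2 (3000 variable genes, of which 21 members were left out, 20 principal components, resolution 0.4, and 0.8 for stromal subtypes, following earlier work on these data). Clusters were named from fixed marker lists. A non-epithelial cluster took the compartment with the largest share of its markers at 2 times their level over all cells or more. An epithelial lineage needed at least 3 markers at 2 times their level in endothelial, macrophage and lymphocyte clusters, and a lead of 2 markers. Stromal subtypes took the largest share of their markers. The limits of these rules were set after the cluster marker levels had been seen, and the per-cell gate used as an alternative was the last of 3 scorings tried. Doublets were not removed. Scrublet (scanpy 1.11.5, Python 3.11.15) called 68 of 18200 cells, too few to be usable, so an alternative left out the 676 cells with the highest scores.

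UMIs were summed per library and class where each library held at least 20 cells, and tested with edgeR 4.0.16 in R 4.3.3 (TMM scaling, filterByExpr, quasi-likelihood F test, Benjamini-Hochberg over all genes, threshold 0.05) for condition, for EYFP with the mouse as block and for the interaction of class and condition with the mouse as block. The scripts were tested on simulated data, where the fibroblast comparison recovered few or none of the changed genes, and the share of false calls was above the threshold in several comparisons, most in that of EYFP in luminal ER- cells. EYFP+ means 1 or more EYFP UMIs. Macrophages and PVL-like cells were not tested. P-values of LATS1/2-KO against CTL measure the spread between 2 mice per group, for which an exact two-sided test of a single value cannot go below 0.33. For EYFP they measure how the difference varied between the same 2 LATS1/2-KO mice. For the interactions they measure how the difference between classes varied between mice. In all of them edgeR shares information on spread across genes, and the very small p-values rest on that sharing too. Counting precision follows from the UMIs given, and PCR and capture errors are not covered. Free RNA was estimated with the library's whole profile as its composition.

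The members are the symbols of the Mmp, Adamts and Timp families and Htra1. They, the other gene lists and the tests were chosen with earlier results of these data known. Every called member is named where 15 or fewer were called, and values per library are given for the largest changes, the Timp genes, Htra1 and members above 50 CPM. Alternatives were RLE scaling, the DESeq2 1.42.0 Wald test, all genes with a UMI, a block for the replicate number, stricter mitochondrial limits, other classes, thinning, doublet and free RNA removal, a fold limit and each library left out. Those added after the data were seen were the 3 regroupings of epithelial clusters, plain CPM scaling, free RNA subtraction for the EYFP and interaction tests, leaving out libraries in the interaction tests, and the alternatives for the levels.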

Additional observations from a re-analysis of the deposited data

Results flagged for a closer look

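The effect of LATS1/2 loss differed between cell classes for the members below by a test of the difference itself, edgeR's quasi-likelihood test of the interaction with the mouse as block. Values are differences of log2 fold changes with Benjamini-Hochberg adjusted p from edgeR.

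Between luminal ER+ and luminal ER- cells, the effect was lower in luminal ER+ cells for Htra1 (-7.01, adjusted p = 4.9e-06), Adamts9 (-2.66, adjusted p = 0.00368), Timp3 (-1.74, adjusted p = 0.000103) and Mmp14 (-1.67, adjusted p = 1.72e-05). It was higher for Adamts3 (2.63, adjusted p = 0.00858), Timp1 (1.97, adjusted p = 0.0006) and Mmp15 (1.95, adjusted p = 5.44e-05). Mmp15 was called in opposite directions in the luminal classes, but its call in luminal ER+ cells was lost under several alternatives. With free RNA subtracted, Adamts9 was no longer called and Adamts1, Adamts4 and Adamts5 were. The calls of Adamts3 and Adamts9 were both lost without KO replicate 1.

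Between basal and luminal ER- cells, the effect was higher in basal cells for Timp1 (5.05, adjusted p = 6.45e-21). It was lower for Adamts5 (-9.66, adjusted p = 1.19e-15), Adamts20 (-9.14, adjusted p = 1.67e-05), Htra1 (-6.21, adjusted p = 1.78e-17), Adamts2 (-5.28, adjusted p = 1.19e-08), Timp3 (-4.90, adjusted p = 9.3e-31), Adamts18 (-4.47, adjusted p = 0.0084), Mmp2 (-3.94, adjusted p = 9.1e-14), Adamts1 (-3.43, adjusted p = 2.06e-24), Mmp23 (-2.98, adjusted p = 0.000157), Adamts4 (-1.91, adjusted p = 0.0121), Timp2 (-1.43, adjusted p = 4.46e-11) and Mmp14 (-1.01, adjusted p = 0.000124). Timp3 and Adamts1 were called higher in luminal ER- and lower in basal cells. With free RNA subtracted, Adamts4 and Mmp2 were no longer called. The size for Adamts20 depends on how the fit treats 0 UMIs, as CTL luminal ER- cells had none.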

How the results depend on the processing

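Counts of members called kept within 1.5 times of the main count under every alternative for luminal ER- cells (23, with 22 to 26 as libraries were left out) and for both interactions, and for iCAF-like cells apart from libraries left out. In luminal ER+ cells 13 calls became 8 with sums thinned to the smallest library (7 of the 13, with Adamts9 added) and 6 with free RNA subtracted, and 6 to 13 as libraries were left out, fewest without KO replicate 1. In basal cells 16 rather than 9 members were called with the per-cell marker gate, and 7 to 8 without a library. In fibroblasts, 7 calls became 13 with no low-count filter and 12 with the gate, and 1 to 13 without a library. iCAF-like cells gave 3 to 10 calls without a library, fewest without CTL replicate 1. In endothelial cells, 5 calls became 3 with DESeq2, 0 with no low-count filter (10 members at an unadjusted p below 0.05 in edgeR) and 8 with the gate, and 3 to 8 without a library. In lymphocytes, 0 calls became 5 with no low-count filter, 1 with the gate, 1 without the highest doublet scores and 0 to 3 without a library. For the interactions, 5 to 8 members were called for luminal ER+ and 12 to 15 for basal cells without a library. The number of member and class pairs above 50 CPM was 70, and 68 to 70 under the alternatives.

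For EYFP in luminal ER- cells, 15 calls became 6 with no replicate block, 7 with DESeq2, 6 with cells thinned to 2000 UMIs and 2 without the Ube2c/Ankrd1 cluster. In luminal ER+ cells, 3 calls became 1 with EYFP+ at 2 or more UMIs, 0 with no replicate block and 0 with DESeq2. The thinned comparison was not run in luminal ER+ cells, where 15 and 12 EYFP+ cells would remain, and leaving out 1 of the 2 mice leaves no residual degrees of freedom.

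The labels do not say that the replicate numbers shared by CTL and KO samples mark a common litter or day, and samples with the same number did not deviate together (correlations of -0.0201 to 0.0761 over genes). With the replicate block, 24 members were called in luminal ER-, 15 in luminal ER+, 9 in basal, 11 in fibroblast, 9 in iCAF-like, 7 in endothelial and 1 in lymphocyte cells.

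Direction turned for Timp3 in luminal ER+ cells with free RNA subtracted (-1.46), for Timp3 (1.14), Timp2 (0.77) and Adamts1 (0.0703) in basal cells and Htra1 (0.0239) and Timp3 (0.0184) in iCAF-like cells with the gate, for Adamts15 with EYFP cells thinned (0.29), and for Mmp15 (0.22) and Adamts15 (0.0665) without the Ube2c/Ankrd1 cluster. The cause was not tested. Plain CPM scaling moved the median of all genes in luminal ER- cells from 0.01 to 0.35 on the log2 scale and that of basal cells from -0.0014 to 0.10. Of 1643 other values over single members, 1488 kept their direction and side of the threshold. This total leaves out members that an alternative did not test, so calls lost in that way are not counted in it. Among them were Mmp2, Mmp3, Mmp9, Mmp12, Mmp19 and Adamts9 in luminal ER- cells with free RNA subtracted.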
